A study of Mus musculus with 6 samples.

Results

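Expression of 9 genes that are used to tell lung dendritic cell subsets apart was followed in 6 RNA-Seq libraries of mouse lung cells. The genes were taken by name from a list and are 9 of the 49315 genes in the count table: Flt3 and Zbtb46 for conventional dendritic cells in general, Clec9a, Batf3 and Irf8 for type 1 cells, Cd209a and Mgl2 for type 2 cells, Siglech for plasmacytoid cells and Fscn1 for mature cells, with Irf8 also counted as a plasmacytoid gene. All 9 were found and had at least 10 reads in every library. The cells came from whole lungs of male C57BL/6J mice given either saline (sham-treated) or Bleomycin sulfate (BLM-treated), a drug that scars the mouse lung, by the oropharyngeal route. Lungs were harvested 21 days later, and 2 to 3 lungs of the same group went into a tube, so that single animals cannot be separated. The study's methods give more than one bleomycin dose for this model without saying which applied to these mice, and no age. From each treatment, unsorted cells, Lamp1-depleted cells and Lamp1-enriched cells were sequenced, the last pair sorted by an antibody against Lamp1, a lysosomal membrane protein, on the cell surface. The study asked whether Lamp1 on the cell surface marks senescent cells, and what kind of cells carry it. Its flow cytometry, which reads protein and not RNA, put dendritic cells beside endothelial cells and macrophages among the main carriers after BLM. Each condition has 1 library, so the ratios below compare 2 libraries each, and their intervals (95%) cover counting error only.

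Dendritic cells take up antigen in the tissue and present it to T cells. Conventional dendritic cells depend on the growth factor receptor Flt3. Type 1 cells are built by the transcription factors Irf8 and Batf3 and carry Clec9a, a receptor for dead cells. Type 2 cells carry lectins such as Cd209a and Mgl2. Plasmacytoid dendritic cells carry Siglech and are known for secreting type I interferon. On maturation, dendritic cells lose much of their uptake, raise the actin-bundling protein Fscn1 and the chemokine receptor Ccr7, and move to the lymph node.

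The libraries held 30236120 to 52918696 counted reads. In BLM Lamp1-depleted cells 38.4% of the reads lay on a single gene, Gm26917, against 0.884% to 7.10% in the others, which left 18636423 reads for all other genes there. Levels are given as CPM, the reads of a gene relative to all counted reads, after scaling with TMM factors, which were 0.699 in that library and 0.993 to 1.19 in the rest. Lamp1 itself was at 319, 146 and 491 CPM in sham unsorted, depleted and enriched cells and at 501, 111 and 378 CPM in the BLM libraries in the same order. The enriched library was the higher of the sorted pair in both treatments (log2 1.66, adjusted p = 8.98e-05, edgeR quasi-likelihood test over the 4 sorted libraries). Unsorted BLM cells were nevertheless above both sorted BLM libraries. Markers of other cell types also moved with the sort. Over all genes the quasi-likelihood test called 21.5% higher and 19.2% lower in Lamp1-enriched cells. All 8 endothelial markers were higher in Lamp1-enriched cells by that test (median log2 3.32), as were 5 of 5 platelet, 5 of 7 fibroblast and 6 of 7 epithelial markers. All 8 B cell markers (median log2 -4.36), 8 T cell markers (-4.40), 6 NK cell markers (-3.65) and the 5 neutrophil markers that could be tested (-1.42) were lower. Of 10 monocyte and interstitial macrophage markers 5 were lower and 0 higher, of 7 alveolar macrophage markers 1 was higher and 0 lower, and of 4 plasma cell markers 1 was higher and 1 lower.

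The sequences just before the start of 5 of the 9 genes are shown first. They belong to the 4 genes that were lower in Lamp1-enriched cells by the test, Flt3, Irf8, Cd209a and Siglech, and to Clec9a, a dendritic cell gene that was higher there. Each is the 250 bases before the RefSeq start on the gene's own strand in GRCm38.p6, 5′ to 3′, at chr5:147400490-147400739 (minus strand) for Flt3, chr8:120736108-120736357 (plus) for Irf8, chr8:3748985-3749234 (minus) for Cd209a, chr7:55767934-55768183 (plus) for Siglech and chr6:129408612-129408861 (plus) for Clec9a. Capitals mark GGAAGT, the letters of a core bound by PU.1 and other ETS factors, and TTCNNNGAA, the palindrome bound by STAT factors, on either strand, so that a match to the first on the other strand reads ACTTCC.
Flt3: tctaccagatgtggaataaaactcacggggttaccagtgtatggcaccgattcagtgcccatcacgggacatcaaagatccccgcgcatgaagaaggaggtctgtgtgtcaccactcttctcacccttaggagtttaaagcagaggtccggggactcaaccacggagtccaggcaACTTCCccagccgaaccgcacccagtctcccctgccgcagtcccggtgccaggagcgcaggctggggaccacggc
Irf8: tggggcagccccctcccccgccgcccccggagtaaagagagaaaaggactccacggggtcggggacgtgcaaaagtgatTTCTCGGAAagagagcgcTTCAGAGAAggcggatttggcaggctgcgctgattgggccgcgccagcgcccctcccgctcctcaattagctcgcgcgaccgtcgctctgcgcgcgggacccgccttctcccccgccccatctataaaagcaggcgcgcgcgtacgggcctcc
Cd209a: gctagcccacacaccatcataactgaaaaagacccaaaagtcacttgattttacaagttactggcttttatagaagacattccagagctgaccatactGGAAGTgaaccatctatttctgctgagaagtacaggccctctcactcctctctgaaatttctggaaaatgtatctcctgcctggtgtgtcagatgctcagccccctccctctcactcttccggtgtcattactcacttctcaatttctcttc
Siglech: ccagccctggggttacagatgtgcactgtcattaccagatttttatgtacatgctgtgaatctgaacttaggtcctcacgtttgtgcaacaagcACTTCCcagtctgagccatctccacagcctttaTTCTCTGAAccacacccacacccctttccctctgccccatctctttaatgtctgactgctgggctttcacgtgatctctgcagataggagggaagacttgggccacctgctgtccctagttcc
Clec9a: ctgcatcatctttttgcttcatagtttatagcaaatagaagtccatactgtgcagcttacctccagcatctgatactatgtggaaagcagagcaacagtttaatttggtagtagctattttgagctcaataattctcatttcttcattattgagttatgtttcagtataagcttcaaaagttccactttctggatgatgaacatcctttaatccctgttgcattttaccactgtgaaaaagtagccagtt
GGAAGT was found in the windows of 5 of the 9 genes (Flt3, Batf3, Cd209a, Mgl2 and Siglech) and in 19.7% of 32817 windows of the same length. Its first base lay 75 bases before the start in Flt3, 152 in Cd209a and 156 in Siglech. TTCNNNGAA was found in 3 windows (Irf8, Batf3 and Siglech) and in 7.01% of all windows. Irf8 held it at 2 places, the farther one beginning 171 bases before the start. The repeat bound by interferon regulatory factors, searched as GAAA and GAAA with 2 bases of any kind between them, was in 0 of the 9 windows and in 2.97% of all. The Clec9a window held none of the 3 motifs. With 35.6% G and C it was the poorest of the 9 in these bases. The others ran from 44.8% (Cd209a) to 76% (Batf3), with 51.6% for Zbtb46, 62.4% for Fscn1 and 67.2% for Irf8. For Batf3, Zbtb46, Mgl2, Siglech and Fscn1 the RefSeq start lies inside the gene as GENCODE M21 draws it, so that the Siglech window shown runs a few bases into the annotated gene. Clec1b, a gene on the same strand, shares 184 exon bases with Clec9a, so that the Clec9a window may lie within Clec1b. All motif hits are matches of letters only. The genes without a position elsewhere in the text cover chr2:181387762-181459426 (Zbtb46, minus strand), chr1:191097847-191108945 (Batf3, plus), chr8:120736358-120756694 (Irf8, plus), chr8:3743397-3748984 (Cd209a, minus), chr11:70130329-70137550 (Mgl2, plus), chr7:55768178-55778925 (Siglech, plus) and chr5:142960343-142973185 (Fscn1, plus) in GRCm38. Counts are given per gene and do not resolve exons.

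The 9 genes did not move as 1 group. After BLM, 6 of the 9 were at least 2-fold higher in unsorted cells (Flt3, Batf3, Irf8, Mgl2, Siglech and Fscn1) and 0 were lower, where 13.9% of all 22772 genes tested were higher and 16% lower. Between the sorted cells of sham lungs, 3 genes were at least 2-fold higher in Lamp1-enriched than in Lamp1-depleted cells (Zbtb46, Clec9a and Fscn1; 27.5% of all genes) and 4 were lower (Flt3, Irf8, Cd209a and Siglech; 25.2% of all genes). The BLM pair had the first 3 higher (34.3% of all genes) and the other 4 and Batf3 lower (22.6% of all genes). Upward in the sort, 3 of 9 is close to the share of all genes. Over both treatments, the edgeR quasi-likelihood test called Zbtb46, Clec9a and Fscn1 higher (21.5% of 20593 genes tested) and Flt3, Irf8, Cd209a and Siglech lower (19.2%). This test rests on 4 libraries with 1 residual degree of freedom and does not test sham or BLM lungs alone. That degree of freedom comes from how the sorting ratio differs between sham and BLM lungs. Its p-values, with a spread pooled across genes, therefore do not measure variation between animals. In bulk RNA, fewer cells of a type and less RNA per cell cannot be told apart.

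**Figure D1:**
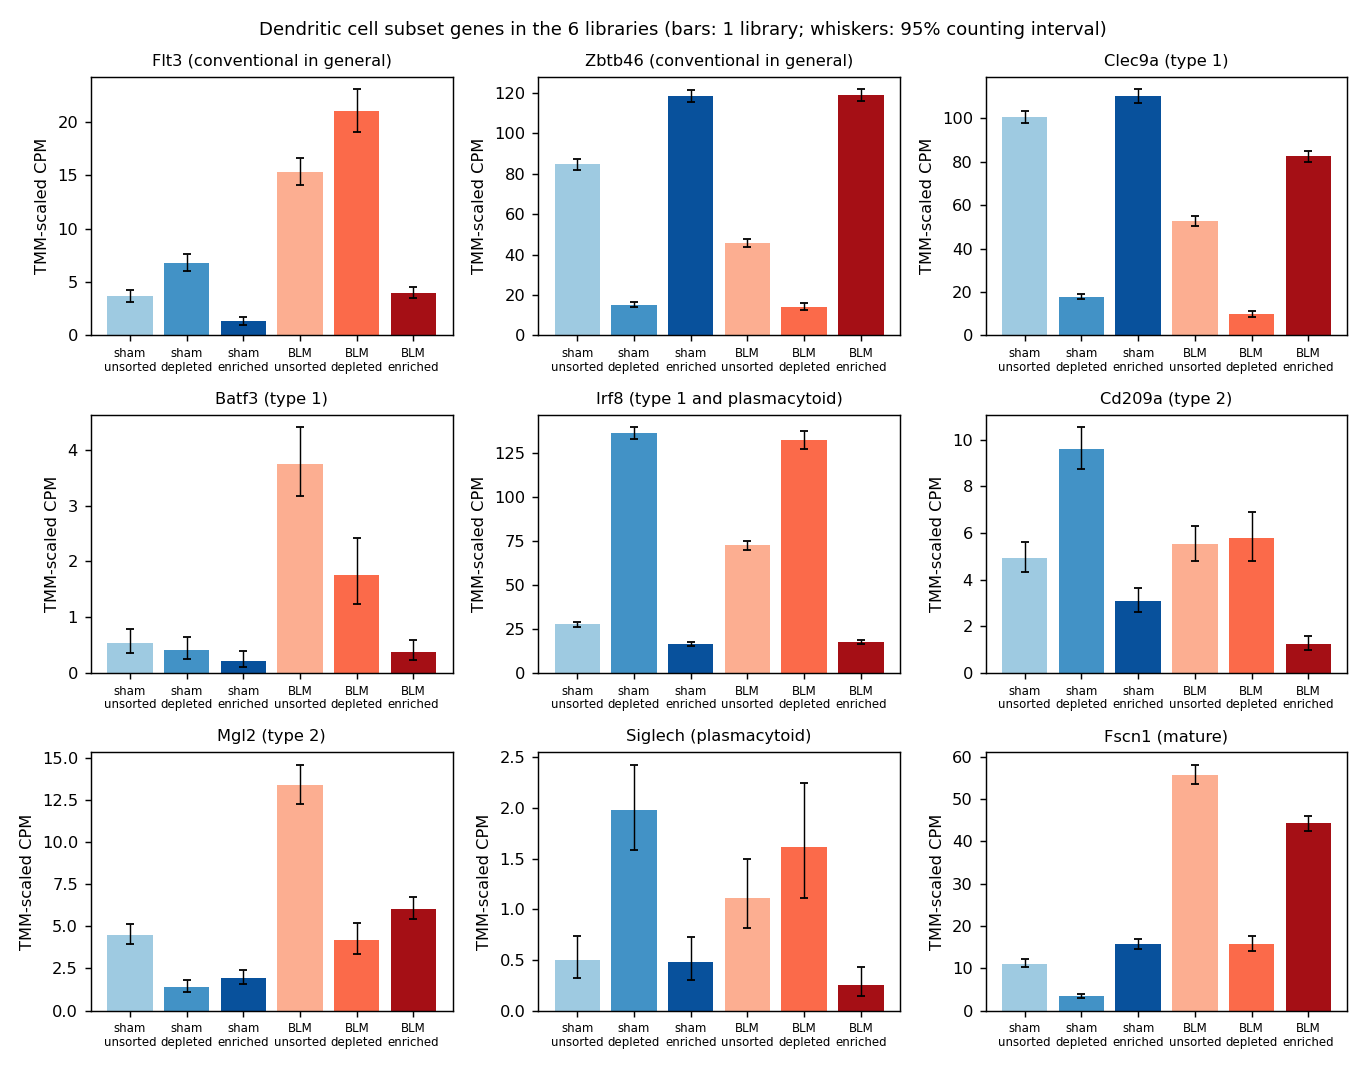
Level of each of the 9 genes (TMM-scaled CPM, y axis from 0, a scale of its own in each panel) in the 6 libraries, blue for sham and red for BLM; a bar is 1 library and whiskers are 95% counting intervals. Irf8 stood at 137 and 132 CPM in the 2 Lamp1-depleted libraries and at 16.3 and 17.5 CPM in the Lamp1-enriched ones, while Zbtb46 ran the other way with 15.3 and 14.3 against 118 and 119 CPM.

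The 2 genes of conventional dendritic cells in general went opposite ways. Flt3, the receptor that dendritic cell precursors need, was at 3.65, 6.78 and 1.33 CPM in sham unsorted, depleted and enriched cells and at 15.3, 20.97 and 3.98 CPM in the BLM libraries (61 to 603 reads). With TMM factors it was highest in depleted and lowest in enriched cells in each treatment, and each BLM library was above its sham partner. In BLM lungs depleted over unsorted cells was log2 0.46 (0.28 to 0.64), a ratio that leans on the TMM factor of the library rich in Gm26917. Enriched over depleted cells, its ratio was log2 -2.34 (-2.77 to -1.95) in sham and -2.39 (-2.64 to -2.16) in BLM lungs, and the test called it lower (log2 -2.47, adjusted p = 1.71e-07), a call lost without the treatment block (adjusted p = 0.0629). After BLM it was higher by log2 2.06 (1.82 to 2.32) in unsorted, 1.63 (1.42 to 1.84) in depleted and 1.58 (1.17 to 2.02) in enriched cells. Flt3 lies at chr5:147330741-147400489 on the minus strand, where the antisense gene Gm26597 overlaps it with 3 to 21 reads.

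Zbtb46, a zinc finger factor of conventional dendritic cells that endothelial cells are known to express too, was at 84.7, 15.3 and 118 CPM in the sham and at 45.7, 14.3 and 119 CPM in the BLM libraries (302 to 6475 reads). The enriched library was the highest in both treatments and the depleted the lowest. Per kilobase of exon it reached 13.9 CPM in sham enriched cells, where Flt3 was at 0.215. Its sorting ratio was log2 2.95 (2.84 to 3.07) in sham and 3.05 (2.89 to 3.23) in BLM lungs, beside medians of 3.16 and 3.54 for the 8 endothelial markers, and the test called it higher (log2 2.91, adjusted p = 3.27e-14). After BLM it was at log2 -0.89 (-0.97 to -0.81) in unsorted cells, where the endothelial median was -0.67. In sorted cells the ratio was -0.10 (-0.30 to 0.10) in depleted and 0.00 (-0.05 to 0.06) in enriched cells. The part of endothelial cells in the Zbtb46 values was not tested.

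Of 12 other genes of dendritic cells in general, 10 were called lower in Lamp1-enriched cells (19.2% of all genes), 1 higher (21.5%) and 1 neither. Their median log2 was -1.87 against 0.03 for all genes. Among the lower ones were Bcl11a (log2 -4.19, adjusted p = 9.96e-25), a factor that B cells share, and Spi1 (-2.62, adjusted p = 5.6e-12), which encodes PU.1. Cd74, the invariant chain of MHC class II, was also lower (-2.05, adjusted p = 0.000271). Summed B cell markers were lower in enriched cells too, at 196 against 3575 CPM in sham and 83.8 against 1721 CPM in BLM lungs. The part of B cells in the values of this list was not tested. The gene called higher was Kit (3.57, adjusted p = 4.28e-14), a receptor that lung capillary endothelium is known to carry. After BLM, 7 of the 12 were at least 2-fold higher in unsorted cells (13.9% of all genes) and 0 lower (16%), with a median log2 of 1.22. Itgax, the integrin Cd11c that alveolar macrophages share, had the largest ratio, 3.56 (3.51 to 3.61).

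Among the type 1 genes, Clec9a went one way and Irf8 the other. Clec9a, a receptor for dead cells, was at 100, 17.9 and 110 CPM in sham unsorted, depleted and enriched cells and at 52.7, 9.66 and 82.4 CPM in the BLM libraries (204 to 5068 reads). Depleted cells were the lowest in each treatment. The sorting ratio was log2 2.62 (2.52 to 2.73) in sham and 3.09 (2.89 to 3.30) in BLM lungs, and the test called it higher (log2 2.76, adjusted p = 5.94e-13). After BLM it was below sham in all 3 suspensions, by log2 -0.93 (-1.01 to -0.86) in unsorted, -0.89 (-1.12 to -0.67) in depleted and -0.42 (-0.48 to -0.36) in enriched cells. Xcr1, the chemokine receptor that defines type 1 cells, shared this pattern only in part. It had 84, 80 and 34 reads in the sham and 188, 22 and 93 reads in the BLM libraries. These are 1.73, 1.75 and 0.739 CPM in the sham and 4.77, 1.04 and 1.71 CPM in the BLM libraries. Depleted cells were thus the lowest in BLM lungs, whereas enriched cells were the lowest in sham lungs. Xcr1 was log2 1.46 (1.08 to 1.85) above sham in BLM unsorted cells. Over both treatments together it was not called between sorted cells (log2 -0.38, adjusted p = 0.711). The wider type 1 list went both ways: Cadm1, at 100, 18.3 and 138 CPM in the sham and 55.3, 9.47 and 141 CPM in the BLM libraries, was like Clec9a in being lowest in depleted cells and lower in unsorted cells after BLM (log2 -0.86, -0.93 to -0.78), as was Tlr3 (-0.30, -0.38 to -0.22), while Wdfy4, Clnk, Itgae and Naaa were lower in enriched than in depleted cells.

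Clec9a lies at chr6:129408862-129424763 in a cluster of lectin genes. The next gene, Clec1a, a lectin known from endothelial cells, is on the opposite strand, ends 8 bases away and shares 0 exon bases with it. Clec1a had 18367, 2738 and 23822 reads in the sham and 5827, 530 and 18131 reads in the BLM libraries. Reads of Clec9a per 100 reads of Clec1a were 26.5 (25.7 to 27.4), 29.8 (27.5 to 32.2) and 21.3 (20.6 to 21.9) in the sham and 35.6 (33.9 to 37.5), 38.5 (32.6 to 45.3) and 24.8 (24.0 to 25.6) in the BLM libraries. Both genes were lowest in depleted cells, and Clec9a made up the largest share beside Clec1a in the BLM unsorted and depleted libraries, whose intervals overlap. Clec1b, a platelet gene on the same strand, shares 184 exon bases with Clec9a and had 37 to 2697 reads. Whether the counting used strand is not given in the sources used here, so reads of Clec9a and of its neighbors cannot be told apart where transcripts run past their annotated ends. Clec9a counts are uncertain for this reason.

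**Figure D2:**
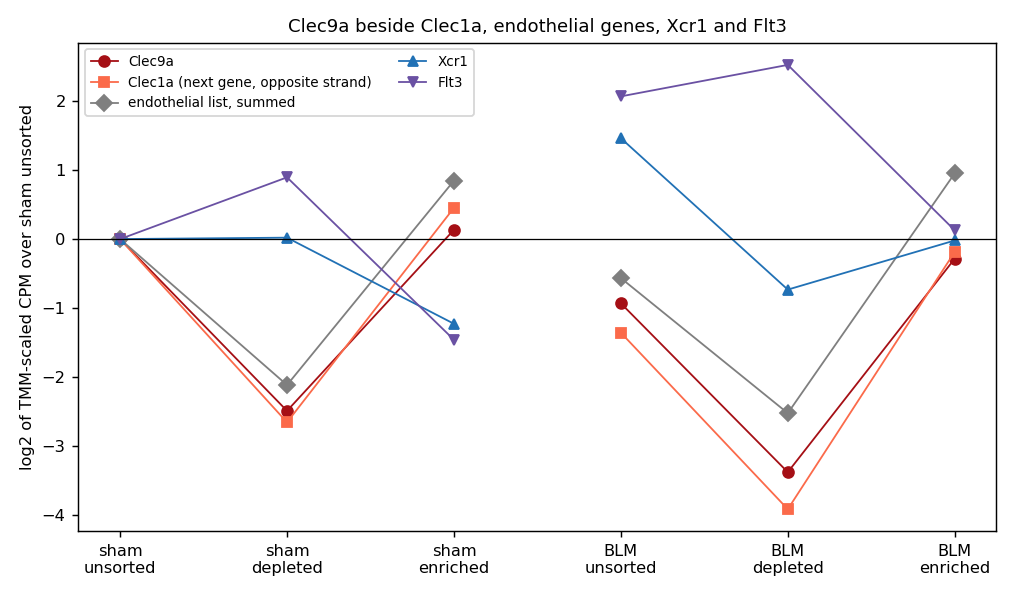
Log2 level (TMM-scaled CPM) relative to sham unsorted cells of Clec9a, Clec1a, the summed 8 endothelial markers, Xcr1 and Flt3 in the 6 libraries; a point is 1 library, and lines join libraries of the same treatment. Clec9a, Clec1a and the endothelial sum were lowest in the Lamp1-depleted library of each treatment, where Flt3 was highest with TMM factors.

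Batf3, a partner of Irf8 in type 1 cells, had the fewest reads of the 9 in both sorted sham libraries. It was at 0.536, 0.417 and 0.217 CPM in the sham and at 3.75, 1.75 and 0.385 CPM in the BLM libraries (10 to 148 reads). BLM unsorted cells stood above the others, and in each treatment enriched cells were the lowest. BLM over sham was log2 2.78 (2.20 to 3.47) in unsorted and 2.03 (1.24 to 2.95) in depleted cells, but 0.80 (-0.32 to 2.08) in enriched cells, an interval that includes 0. The sorting ratio was -0.91 (-2.21 to 0.24) in sham and -2.15 (-3.03 to -1.37) in BLM lungs, and the test did not call it (log2 -1.69, adjusted p = 0.148).

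Irf8, which directs type 1 and plasmacytoid development and is also known from B cells and monocytes, was at 27.6, 137 and 16.3 CPM in the sham and at 72.6, 132 and 17.5 CPM in the BLM libraries (749 to 6226 reads). With TMM factors, levels in sorted cells were nearly the same after both treatments, while unsorted BLM cells were above unsorted sham cells. Between sorted cells the ratio was log2 -3.07 (-3.18 to -2.96) in sham and -2.92 (-3.03 to -2.82) in BLM lungs, and the test called it lower (log2 -3.09, adjusted p = 1.11e-15). BLM over sham was log2 1.39 (1.30 to 1.49) in unsorted cells, against -0.04 (-0.11 to 0.02) in depleted and 0.10 (-0.04 to 0.24) in enriched cells. With DESeq2 size factors the ratio in depleted cells turned to 0.11, and with total counts it was -0.76. The summed B cell markers were at 3575 CPM in sham depleted and 196 CPM in sham enriched cells and at 1721 and 83.8 CPM in the BLM pair. In unsorted cells, where Irf8 was higher after BLM, they were at 288 CPM in sham and 196 CPM in BLM lungs. The part of B cells in the Irf8 values was not tested.

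Of 10 other type 1 genes, 2 were called higher (21.5% of all genes) and 4 lower (19.2%) in Lamp1-enriched cells, with a median log2 of -0.35. Upward, 2 of 10 is close to the share of all genes. The higher ones were Cadm1 (3.30, adjusted p = 3.55e-17), an adhesion molecule, and Tlr3 (3.17, adjusted p = 7.06e-16), a receptor for double-stranded RNA. The lower ones were Wdfy4 (-3.88, adjusted p = 6.68e-18), needed for cross-presentation and also expressed in B cells, Clnk (-3.22, adjusted p = 2.19e-06), Itgae (-2.71, adjusted p = 2.87e-09) and Naaa (-1.18, adjusted p = 0.00278). In unsorted cells after BLM 4 of the 10 were at least 2-fold higher (13.9% of all genes) and 0 lower (16%), with a median of 0.63. Naaa had the largest ratio, log2 2.71 (2.63 to 2.79), and Itgae, the integrin Cd103, was at 1.89 (1.61 to 2.19).

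The 2 lectins of type 2 cells differed from each other. Cd209a, a DC-SIGN homolog, was at 4.94, 9.61 and 3.09 CPM in the sham and at 5.53, 5.78 and 1.25 CPM in the BLM libraries (68 to 438 reads). Enriched cells were the lowest in each treatment. Its sorting ratio was log2 -1.63 (-1.92 to -1.36) in sham and -2.20 (-2.66 to -1.77) in BLM lungs, and the test called it lower (log2 -2.01, adjusted p = 0.000189), a call lost without the treatment block (adjusted p = 0.056) and with total counts (adjusted p = 0.0662). BLM over sham was 0.16 (-0.11 to 0.43) in unsorted, -0.73 (-1.04 to -0.44) in depleted and -1.30 (-1.75 to -0.88) in enriched cells. With TMM factors it was the 1 member at least 2-fold lower after BLM in any suspension. With total counts Zbtb46 (-1.15) and Clec9a (-1.19) in unsorted cells, and Clec9a (-1.61), Cd209a (-1.45) and Siglech (-1.01) in depleted cells, were also at least 2-fold lower. Its near copies had few reads: Cd209b had 9 to 25 and Cd209c 2 to 62, and Cd209d, Cd209e, Cd209f and Cd209g had 9 or fewer in any library.

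Mgl2, a galactose-binding lectin that macrophages can also carry, was at 4.51, 1.40 and 1.96 CPM in the sham and at 13.4, 4.21 and 6.05 CPM in the BLM libraries (64 to 529 reads). The BLM libraries were above the sham libraries, except that BLM depleted cells lay just under sham unsorted cells. With TMM factors BLM over sham was log2 1.57 (1.34 to 1.81) in unsorted, 1.58 (1.11 to 2.07) in depleted and 1.63 (1.29 to 1.98) in enriched cells, and with total counts it was 1.31, 0.86 and 1.64. The sorting ratio was 0.48 (0.00 to 0.96) in sham and 0.52 (0.18 to 0.88) in BLM lungs (1.08 with total counts), and the test did not call it (log2 0.40, adjusted p = 0.565). Clec10a, its near copy, had 50, 109 and 20 reads in the sham and 156, 91 and 41 reads in the BLM libraries. Unlike Mgl2 it was called lower in enriched cells (log2 -2.58, adjusted p = 0.000292), and in unsorted cells it was log2 1.93 higher after BLM. How reads shared by the 2 copies were counted is not given in the sources used here.

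Of 8 other type 2 genes that could be tested, 5 were called lower (19.2% of all genes) and 1 higher (21.5%) in Lamp1-enriched cells, with a median log2 of -1.78. The 5 were Ltb (-4.66, adjusted p = 2.45e-27) and Irf4 (-4.13, adjusted p = 2.76e-22), both also lymphocyte genes, Clec10a, Itgam (-2.46, adjusted p = 1.27e-09) and Tnip3 (-1.10, adjusted p = 0.0208). Klf4, a factor that endothelial cells use too, was higher (1.41, adjusted p = 0.000566). In unsorted cells 5 of 9 type 2 genes were at least 2-fold higher after BLM (13.9% of all genes) and 0 lower (16%), with a median of 1.498. The higher ones included Cd33 (2.74, 2.63 to 2.84) and Sirpa (2.42, 2.38 to 2.46). Over the same comparison 9 of 10 monocyte and interstitial macrophage markers were at least 2-fold higher, with a median of 2.79. Their summed level was 220 CPM in sham and 1423 CPM in BLM unsorted cells, and that of 7 alveolar macrophage markers was 566 and 2175 CPM. The part of macrophages in the BLM values of Flt3, Irf8, Mgl2 and the other genes was not tested.

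Siglech, the receptor that marks plasmacytoid cells, was the gene with the fewest reads of the 9 in 4 of the 6 libraries. It was at 0.494, 1.97 and 0.478 CPM in the sham and at 1.12, 1.61 and 0.257 CPM in the BLM libraries (14 to 90 reads). With TMM factors, depleted cells were the highest in each treatment. In BLM lungs their ratio to unsorted cells was log2 0.52 (-0.16 to 1.21), an interval that includes 0. In the sort the ratio was log2 -2.02 (-2.79 to -1.36) in sham and -2.59 (-3.66 to -1.71) in BLM lungs, and the test called it lower (log2 -2.42, adjusted p = 0.00749), a call lost with total counts in place of TMM factors (adjusted p = 0.102). After BLM the ratio to sham was 1.16 (0.42 to 1.96) in unsorted cells, while the intervals included 0 in depleted (-0.29, -0.91 to 0.29) and enriched cells (-0.87, -1.98 to 0.13). Of 9 other plasmacytoid genes that could be tested, 5 were called lower in enriched cells (19.2% of all genes) and 2 higher (21.5%), with a median of -2.11. Upward, 2 of 9 is close to the share of all genes. Pacsin1 (-4.53, adjusted p = 7.53e-14), Runx2 (-2.11, adjusted p = 8.18e-08) and Ccr9 (-2.33, adjusted p = 7.27e-06) were lower, as were Spib (-4.24, adjusted p = 4.42e-25) and Ly6d (-4.09, adjusted p = 1.01e-23), which B cells express too. Tcf4 (1.62, adjusted p = 0.000373) and Bst2 (1.37, adjusted p = 0.000702), both widely expressed, were higher. In unsorted cells after BLM 2 of 9 were at least 2-fold higher (13.9% of all genes) and 2 lower (16%), not far from these shares. The higher ones were Runx2 (1.83, 1.72 to 1.95) and Pacsin1 (1.56, from 35 and 85 reads).

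Fscn1, the actin-bundling protein of mature dendritic cells that other migrating cells make too, was at 11.1, 3.40 and 15.7 CPM in the sham and at 55.8, 15.8 and 44.3 CPM in the BLM libraries (155 to 2414 reads). The BLM depleted library, the lowest of that treatment, was level with sham enriched cells, the highest of the other, and depleted cells were the lowest in each treatment. BLM-treated lungs exceeded sham-treated lungs by log2 2.33 (2.19 to 2.47) in unsorted, 2.21 (1.93 to 2.497) in depleted and 1.49 (1.37 to 1.61) in enriched cells. The sorting ratio was 2.21 (1.96 to 2.47) in sham and 1.49 (1.32 to 1.66) in BLM lungs, and the test called it higher (log2 1.75, adjusted p = 1.49e-05). Without the treatment block the call was lost (log2 1.51, adjusted p = 0.224). Of 12 other genes of mature cells, 2 were called higher (21.5% of all genes), 4 lower (19.2%) and 6 neither, with a median of 0.12. Ccr7 (-4.03, adjusted p = 6.92e-21) and Cd83 (-3.57, adjusted p = 2e-16), which lymphocytes also express, were lower with Relb (-1.41, adjusted p = 0.000227) and Cd40 (-1.26, adjusted p = 0.00143). Socs2 (1.89, adjusted p = 1.96e-06) and Cacnb3 (1.75, adjusted p = 0.000402) were higher. In unsorted cells 4 of the 12 were at least 2-fold higher after BLM (13.9% of all genes) and 0 lower (16%), with a median of 0.68. They included the chemokines Ccl17 (2.42, 2.13 to 2.74) and Ccl22 (2.23, 2.07 to 2.39) and the cytokine subunit Il12b (2.44, 2.05 to 2.86). Ccr7 was at 32.9 CPM in sham and 41.2 CPM in BLM unsorted cells (1598 and 1625 reads).

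Side by side, the sorting ratios of 6 of the 9 members differed between treatments by no more than counting error with TMM factors. The median of the 9 was log2 -0.91 in sham and -2.15 in BLM lungs, against -0.01 and 0.29 over all genes. In both treatments this middle value was that of Batf3 alone, from 10 to 37 reads in the sorted libraries. It does not show a shift of the 9 as a set, and the Batf3 difference itself included 0 (-1.24, -2.57 to 0.08). The BLM minus sham difference of the ratio excluded 0 for 3 genes: Clec9a (0.47, 0.24 to 0.70), Cd209a (-0.56, -1.07 to -0.06) and Fscn1 (-0.72, -1.02 to -0.42). With total counts in place of TMM factors the difference turned to 0.17 for Cd209a and 0.016 for Fscn1. With TMM factors the intervals of the other 6 included 0, as for Flt3 (-0.05, -0.51 to 0.41) and Irf8 (0.15, -0.01 to 0.30). With total counts the differences were larger for 5 genes, at 0.68 for Flt3, 0.84 for Zbtb46, 1.20 for Clec9a, 0.88 for Irf8 and 0.78 for Mgl2. The intervals cover counting error only, so none of these differences has a replicate check.

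**Figure D3:**
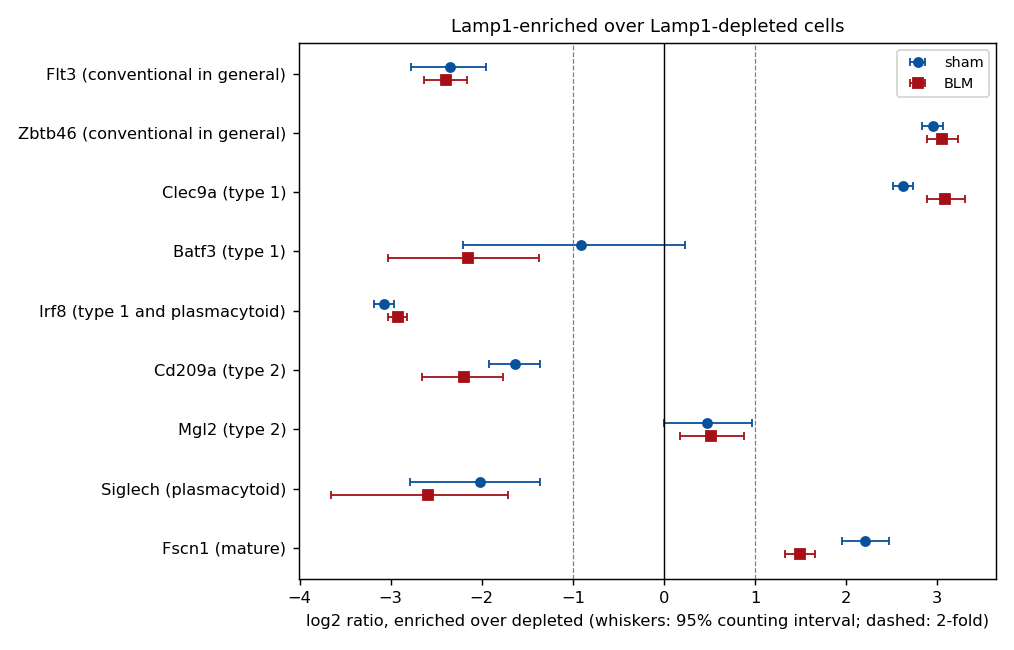
Log2 ratio of Lamp1-enriched over Lamp1-depleted cells (x axis) for the 9 genes in sham (blue circles) and BLM lungs (red squares); whiskers are 95% counting intervals, dashed lines mark 2-fold, and each point compares 2 libraries. Flt3, Irf8, Cd209a and Siglech lay beyond 2-fold on the left in both treatments, Zbtb46, Clec9a and Fscn1 on the right, and Mgl2 within 2-fold, all with TMM factors.

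BLM over sham depended on the suspension for some members and not for others. In unsorted cells the median of the 9 was log2 1.39 against -0.07 over all genes. Among Lamp1-depleted cells 4 were at least 2-fold higher (Flt3, Batf3, Mgl2 and Fscn1; 13.7% of all genes) and 0 lower (22.3%), with a median of -0.04. In Lamp1-enriched cells 3 were higher (Flt3, Mgl2 and Fscn1; 10.2% of all genes) and 1 lower (Cd209a; 7.86%), with a median of 0.10. With TMM factors Flt3, Mgl2 and Fscn1 were past 2-fold in all 3 suspensions, and Irf8 and Siglech in unsorted cells only. With total counts Flt3 (0.91) and Mgl2 (0.86) were under 2-fold in depleted cells and Siglech (0.90) in unsorted cells. That setting left Batf3 and Fscn1 higher in depleted cells and put Clec9a (-1.61), Cd209a (-1.45) and Siglech (-1.01) at least 2-fold lower. The BLM Lamp1-depleted library is the one in which Gm26917 took 38.4% of the reads.

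**Figure D4:**
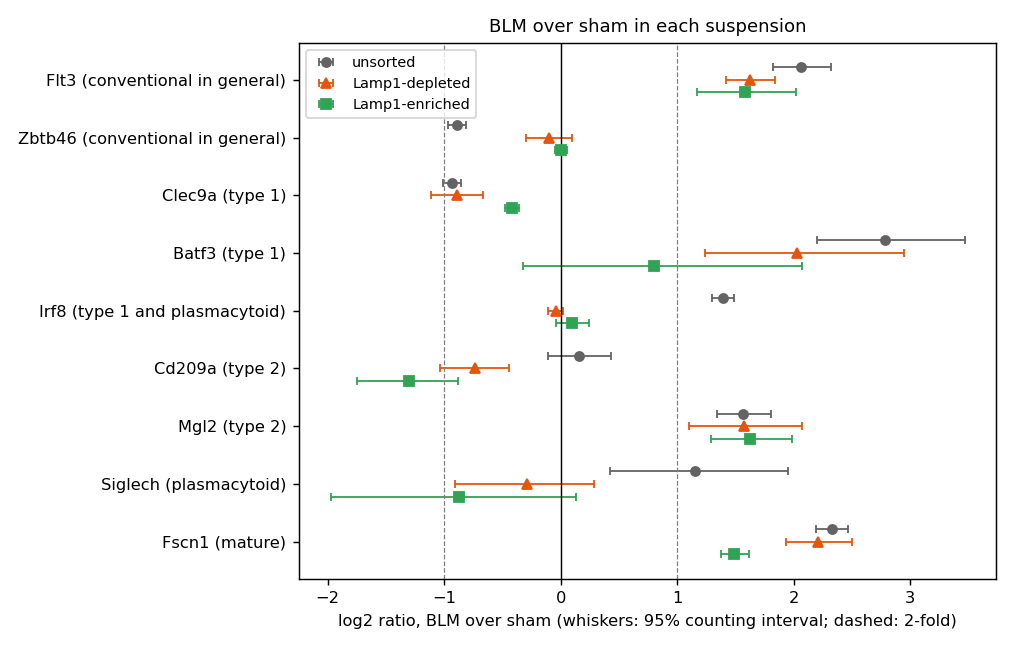
Log2 ratio of BLM over sham (x axis) for the 9 genes in unsorted (grey circles), Lamp1-depleted (orange triangles) and Lamp1-enriched cells (green squares); whiskers are 95% counting intervals, dashed lines mark 2-fold, and each point compares 2 libraries. With TMM factors the 3 Mgl2 points lay between 1.57 and 1.63, while for Irf8 the unsorted point at 1.39 stood apart from those of sorted cells at -0.04 and 0.10.

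Unsorted cells did not always lie between the sorted ones. Mgl2 was lower than unsorted in both fractions of both treatments: by log2 -1.68 (-2.11 to -1.28) in depleted and -1.20 (-1.58 to -0.85) in enriched sham cells, and by -1.67 (-2.01 to -1.34) and -1.15 (-1.35 to -0.95) in BLM cells. Batf3 was lower than unsorted in both BLM fractions, at -1.09 (-1.66 to -0.57) in depleted and -3.25 (-4.02 to -2.62) in enriched cells. So was Fscn1, at -1.82 (-1.99 to -1.66) in depleted and -0.33 (-0.42 to -0.25) in enriched BLM cells. The 7 alveolar macrophage markers had medians of -2.21 and -1.87 over unsorted in depleted and enriched sham cells and of -3.63 and -2.86 in the BLM fractions. Cells lost in the sort were not measured, and the part of macrophages in the Mgl2 values was not tested. Flt3, in contrast, was below unsorted cells in enriched sham cells (log2 -1.45, -1.90 to -1.03) and above them in depleted sham cells (0.89, 0.62 to 1.17).

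A share within a library needs no scaling between libraries. Of the summed reads of Clec9a, Cd209a, Mgl2 and Siglech, Clec9a made up 91.0%, 57.9% and 95.2% in sham unsorted, depleted and enriched cells and 72.4%, 45.4% and 91.6% in the BLM libraries. Because of the doubt over Clec9a, the shares of the other 3 were also taken alone, a choice made after the values were seen. Cd209a was 49.7% (45.1 to 54.2), 74.0% (70.3 to 77.5) and 55.9% (49.6 to 62.1) of these reads in the sham libraries. In the BLM libraries it was 27.6% (24.5 to 30.8), 49.8% (43.4 to 56.2) and 16.5% (13.1 to 20.4). Its share was lower after BLM in every suspension, and the intervals of the pairs did not overlap. A share also moves with the other genes: in unsorted cells Cd209a had 240 reads in sham and 218 in BLM lungs, and Mgl2 219 and 529. Mgl2 was higher after BLM in every suspension, at 45.3% (40.8 to 49.9), 10.8% (8.43 to 13.6) and 35.4% (29.6 to 41.7) in the sham and 66.9% (63.5 to 70.2), 36.3% (30.3 to 42.7) and 80.1% (75.9 to 83.8) in the BLM libraries, with no overlap of paired intervals. Siglech stayed between 3.40% and 15.2% and was highest in the depleted library of each treatment. Intervals are exact binomial intervals of the reads, which are not independent molecules.

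**Figure D5:**
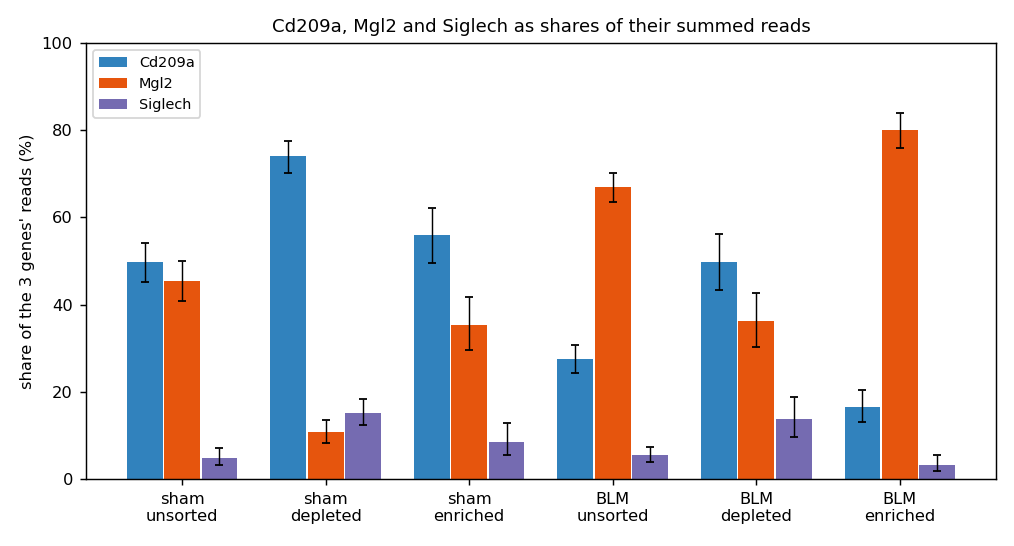
Share (%) of Cd209a (blue), Mgl2 (orange) and Siglech (purple) in the summed reads of the 3 genes in each of the 6 libraries; whiskers are exact 95% binomial intervals and cover counting error only. Mgl2 held 45.3%, 10.8% and 35.4% in sham unsorted, depleted and enriched cells and 66.9%, 36.3% and 80.1% in the BLM libraries.

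The genes most like 4 members were sought among 17906 genes with at least 50 reads in their highest library, by the root mean square difference of centered log2 levels over the 6 libraries. Nearest to Clec9a were Pmp22 (0.092), Ror1 (0.110) and Gm16701 (0.113), and among the members Zbtb46 (0.345). Nearest to Siglech were Slc19a1 (0.203), Itgal (0.208) and Notch2 (0.212), and among the members Irf8 (0.407) and Cd209a (0.455). Cd209a had Gm15346 (0.212), E130215H24Rik (0.234) and Armc3 (0.241) closest to it. Fscn1 lay closest to Cdk1 (0.259), Rab11fip5 (0.261) and E2f7 (0.267), and among the members to Mgl2 (0.680). These are descriptions over 6 libraries that share their lungs within a treatment. The 6 include the 4 sorted libraries, so genes with near profiles also have near sorting ratios. That the nearest members of Siglech were 2 genes also lower in Lamp1-enriched cells is therefore no separate result. The nearest member of Clec9a, Zbtb46, is of another class and was likewise higher in Lamp1-enriched cells, so this too is no separate result.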

How the data were processed

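RNA of poly(A) type from 6 suspensions of lung cells was sequenced as read pairs by the study. The deposited values are raw counts of reads per gene, with no normalization by the authors. The submitters' processing notes name Trimmomatic 0.36, STAR 2.5.2b, featureCounts, Subread 1.5.2, DESeq2 and the build GRCm38; the annotation release and the strand setting are not given in the sources used here. Strand and multi-mapping settings bear on overlapping genes and near copies.

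Genes were matched by identifier to GENCODE M21 (49056 of 49315), which gave positions and exon lengths. TMM factors came from edgeR 4.0.16 (R 4.3.3) over 6 libraries. Log2 ratios (Python 3.11.15, numpy 2.4.6, scipy 1.17.1, pandas 2.3.3) used a prior count of 0.5, a minimum of 10 reads in the larger of the paired libraries, a Clopper-Pearson interval at 95% and a 2-fold threshold. With 1 library per condition, ratios have no p-value. The edgeR quasi-likelihood test was fitted to the sorted libraries (4) and took treatment as a block, with Benjamini-Hochberg adjustment over all genes kept by filterByExpr and a threshold of 0.05. Dispersions were pooled across genes (infinite prior degrees of freedom), with a biological coefficient of variation of 0.316. Rows with an Ensembl identifier but no gene name (174, at most 0.0138% of reads) were kept as genes. The programs were tested on simulated data.

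The members and lists were chosen with earlier results of these data known, and lists were written from general knowledge. Beside the members, the genes named were up to 3 list genes per comparison with the largest ratio among those with at least 50 reads, the 3 nearest profiles, near copies and Lamp1. Other list genes called by the test, Xcr1, the neighbors of Clec9a and Gm26917 were named after their values were seen. Alternatives were DESeq2 1.42.0 size factors and Wald test, total counts only, scaling without Gm26917, a prior of 2, minimums of 1 and 50 reads, a threshold of 4-fold or an interval excluding 0, thinned counts, a test of every gene with a read, a fit to all 6 libraries, no treatment block and, added after seeing the data, a fit without the BLM Lamp1-depleted library.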

Additional observations from a re-analysis of the deposited data

How the results depend on the processing

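Of 106 alternative values of the counts of members, 96 stayed within 1.5 times of the reported count. With total counts only, the members at least 2-fold lower after BLM were 2 in unsorted and 3 in Lamp1-depleted cells (0 in both with TMM factors), those higher in Lamp1-depleted cells 2 in place of 4, and the members called lower between sorted cells 2 in place of 4 (Cd209a, adjusted p = 0.0662, and Siglech, adjusted p = 0.102, lost). This setting moved the median of all genes by log2 -0.26 in unsorted and -0.72 in Lamp1-depleted cells for BLM over sham, by -0.17 and 0.56 for the sham and BLM sorting ratios, and by 0.013 in Lamp1-enriched cells. It also turned the BLM minus sham difference of the sorting ratio to 0.17 for Cd209a and 0.016 for Fscn1. At 4-fold, 3 members were higher in unsorted, 2 in Lamp1-depleted and 0 in Lamp1-enriched cells after BLM, and 0 were lower in the last. With at least 50 reads, 3 members in place of 5 were lower in BLM Lamp1-enriched than Lamp1-depleted cells, because Batf3 and Siglech have fewer reads there. Without the treatment block 2 members were called lower, since Flt3 (adjusted p = 0.0629) and Cd209a (adjusted p = 0.056) were lost. Over all genes the test called 8386, against 5077 without the block and 4436 with total counts only, where 64.7% of the calls were higher in place of 52.7%. Without the BLM Lamp1-depleted library it called 7867 genes, in a fit of another form, with unsorted cells added and 23813 genes kept, so the count cannot be set beside the others. There the depleted arm is the sham library alone, assumed to vary like the unsorted and enriched libraries that give the spread; in that fit the 7 members kept their direction and call. The treatment block sets enriched against depleted cells within each treatment. The labels hold 1 library per condition and no replicate numbers, so no other pairing could be fitted and no replicate left out. Depth limits Siglech and Batf3 most, with 10 to 148 reads.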
